A study of Sus scrofa with 15 samples.

Results

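Pig granulosa cells after 7 days of culture, which the labels call DFOG cells, were compared with granulosa cells at day 0, before culture, to describe the dedifferentiated state by the level of each transcript as well as by its change. The comparison used all 3 arrays of day 7 and all 3 of day 0, 6 of the 15 arrays of a time course that also sampled days 1, 2 and 4. Affymetrix porcine genome arrays measured total RNA, with 23999 probe sets besides 124 controls. Exactly 1 gene symbol stood beside 10069 of them, for 6765 genes. Cells of both days came from ovarian follicles. The day 7 cells had been grown to semiconfluence, and the labels give neither strain nor age, follicle stage or medium. The replicates are called biological, but whether each was its own animal or its own culture is not said, so a p value speaks of the variation among these arrays and may not cover that among animals.

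Granulosa cells line the inside of the ovarian follicle and surround the oocyte. They convert androgens to estradiol, secrete inhibin and follistatin, exchange small molecules through gap junctions and respond to follicle-stimulating and luteinizing hormone. When taken out of the follicle and grown on plastic, granulosa cells are known to flatten, to spread and to lose part of this hormone production.

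Values are log2 intensities, and a difference is day 7 minus day 0 with its standard error (SE). A probe set was called higher or lower when its Benjamini-Hochberg adjusted p from limma was under 0.05 and its difference was at least 1 in size. Brightness depends on how well each probe set hybridizes as well as on the transcript, so an order of levels between genes is an order of signal. In bulk RNA, fewer cells of a type and less RNA per cell cannot be told apart.

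Arrays of the same day were alike, with correlations of at least 0.982 among the day 7 arrays and 0.974 among the day 0 arrays, against at most 0.902 between a day 7 and a day 0 array. On the third principal component of all 15 arrays (13.1% of the variance), replicate 1 stood apart on both days, at -48.1 on day 7 and -29.4 on day 0, against 5.78 to 8.96 for the other 4 arrays. The difference between the 3′ and 5′ probe sets of actin, which grows as transcripts are shortened, lay between 0.194 and 0.589 on day 7 and between 0.967 and 1.68 on day 0. The same difference overlapped between the days for GAPDH (0.0978 to 0.683 on day 7, 0.501 to 1.16 on day 0) and for elongation factor 1 alpha (-0.260 to -0.00477 on day 7, -0.249 to 0.192 on day 0). For the added control transcript dap, 1 of 3 pairs of probe sets was lower on every day 7 array (1.25 to 1.45, against 1.72 to 1.77 on day 0) while the days overlapped in the other pairs. These measures differed between the same arrays as every gene group below, and their part in the results was not tested.

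Most probe sets, dim ones included, lay at a similar level on both days. Across probe sets the day means had a Pearson correlation of 0.904, given as a description since all points share the same 6 arrays, and 76.3% of probe sets stayed in the same quartile of signal. For 14616 probe sets (60.9%) the 95% interval of the difference lay inside -1 to 1, and for 4729 (19.7%) inside -0.5 to 0.5. At the same time 3993 probe sets (16.6%) were called, 2246 higher on day 7 (9.36%) and 1747 lower (7.28%), and the median difference of all probe sets was -0.05. The values of the 3 day 7 arrays did not overlap those of the 3 day 0 arrays for 46.5% of probe sets. By level, 72 probe sets were in the highest quartile on day 7 and in the lowest on day 0, and 18 were the other way round.

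**Figure D1:**
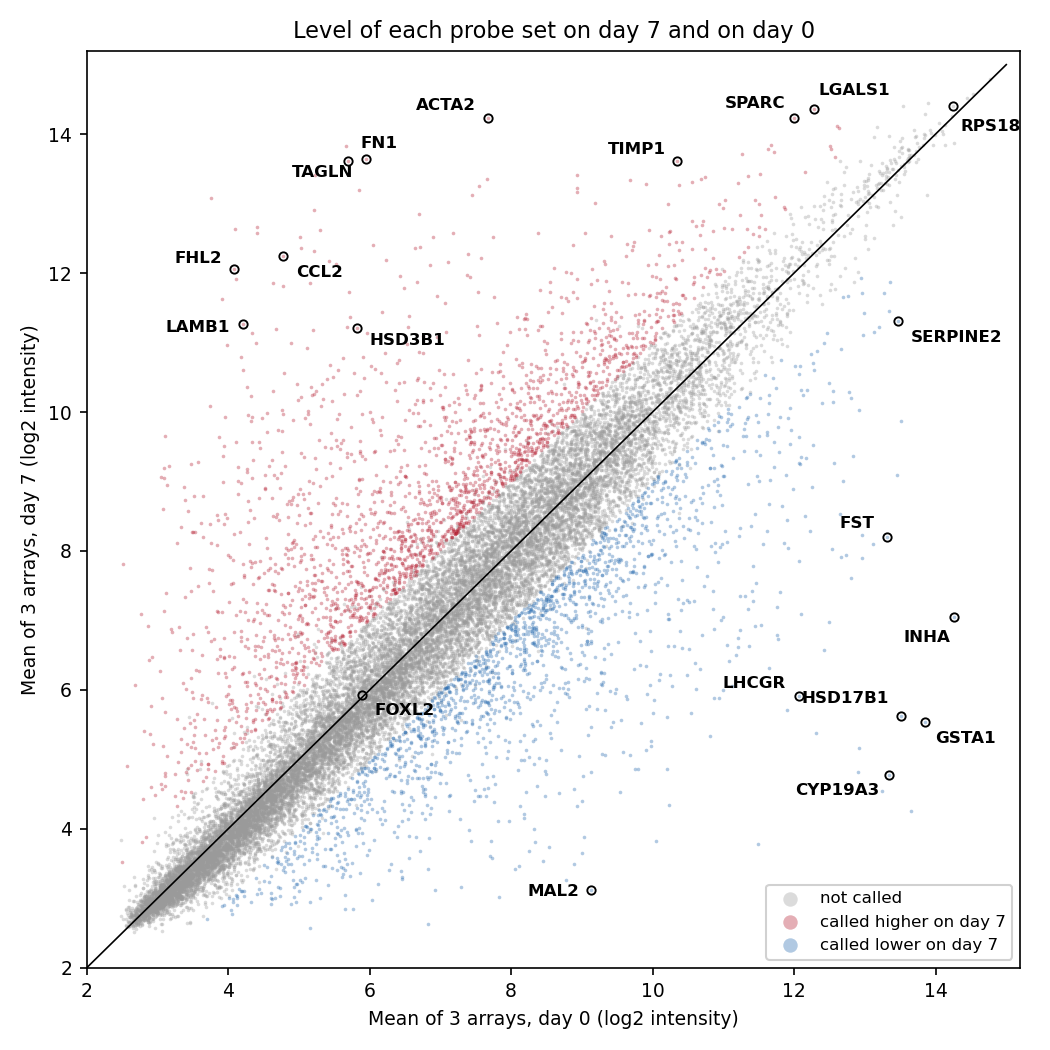
Mean log2 intensity of the 23999 probe sets on day 7 (vertical axis) and on day 0 (horizontal axis), 3 arrays each, with called probe sets in red (2246 higher on day 7) and blue (1747 lower on day 7) and the line of equal level in black. ACTA2, TAGLN and FN1 lie at 13.61 to 14.23 on day 7 with day 0 means of 5.70 to 7.68, and INHA, GSTA1, HSD17B1 and CYP19A3 lie at 4.78 to 7.05 on day 7 with day 0 means of 13.35 to 14.26.

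Of the 100 brightest probe sets on each day, 70 were the same, and 35 of the day 7 set and 37 of the day 0 set belonged to ribosomal proteins. RPS18, a protein of the small ribosomal subunit, had 14.33, 14.43 and 14.45 on day 7 and 14.17, 14.37 and 14.18 on day 0, a difference of 0.16 ± 0.11 (95% interval -0.08 to 0.40). UBB, a ubiquitin gene, differed by -0.11 ± 0.11 (95% interval -0.36 to 0.13). The days overlapped for both genes. Of the 100 brightest probe sets 70 on day 7 and 69 on day 0 had 1 symbol. Ranks 1 to 3, the same on both days, were not among these. The brightest named gene of day 7 was GAPDH, a glycolytic enzyme, with a mean of 14.45 ± 0.03 on day 7 and 13.89 ± 0.19 on day 0 (SD, n = 3 arrays each). It was followed on day 7 by TMSB10, an actin-monomer-binding thymosin, at 14.40 ± 0.06, against 13.54 ± 0.17 on day 0. The brightest named gene of day 0 was INHA, the alpha subunit of inhibin, which feeds back on the pituitary.

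The 30 probe sets that were among the 100 brightest only on day 7 included 24 with 1 symbol. They ranged from actin-linked and matrix genes (ACTA2, TAGLN, TPM1, TPM4, MYL6, FN1, SPARC) to ribosomal proteins (RPL8, RPL10A, RPL12). The metabolic enzymes GAPDH and LDHA and the ferritin chain FTL were there too. GAPDH entered only by a dimmer probe set (13.96 on day 7, 13.13 on day 0), since its brightest was in the 100 on both days. ACTA2, the smooth muscle actin of contractile cells, had 14.22, 14.26 and 14.21 on day 7 and 7.18, 7.50 and 8.36 on day 0. The day 7 arrays were close together and all far above those of day 0, a rise of 6.55 ± 0.32 or 93.8-fold (limma adjusted p = 5.57e-09). TAGLN, the actin-binding transgelin of smooth muscle, had 13.61, 13.67 and 13.67 on day 7 and 5.39, 6.01 and 6.46 on day 0, and rose by 7.69 ± 0.23. FN1, the adhesive glycoprotein fibronectin, had 13.38, 13.70 and 13.76 on day 7 and 4.98, 6.34 and 5.78 on day 0, and rose by 7.91 ± 0.36. No array of day 7 came near a day 0 array for these genes.

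Some other genes that entered the brightest 100 had been bright already. LGALS1, the secreted lectin galectin-1, had 14.33, 14.33 and 14.40 on day 7 and 12.21, 12.34 and 12.30 on day 0, and SPARC, a collagen-binding matrix protein, had 14.12, 14.31 and 14.26 on day 7 and 11.94, 12.11 and 11.95 on day 0. They rose by 2.07 ± 0.16 and 2.23 ± 0.15, and both were bright on all arrays of both days (above the 95th percentile). ANXA2, a calcium-dependent membrane-binding annexin, averaged 13.78 ± 0.06 on day 7 and 11.63 ± 0.23 on day 0. TIMP1, an inhibitor of matrix metalloproteinases, averaged 13.62 ± 0.05 on day 7 and 10.34 ± 0.38 on day 0. Its day 0 mean was under the 95th percentile of every day 0 array (10.51 to 10.60), so it had not been bright. The cytoplasmic actins were among the brightest genes on both days. ACTB had 14.21, 14.07 and 14.05 on day 7 and 13.44, 12.90 and 13.18 on day 0, a difference of 0.93 ± 0.17 that was under the minimum for a call although the days did not overlap. ACTG1 differed by 0.44 ± 0.14. Of the 100 brightest probe sets of day 7, 19 were called higher and 0 lower, where 9.36% and 7.28% of all probe sets were. A set chosen for high day 7 signal leans to higher calls, so nothing is read from these counts. At an adjusted p under 0.05 with no minimum difference, 31.3% of all probe sets passed.

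The 30 probe sets that were among the 100 brightest only on day 0 included 23 with 1 symbol, and the best known granulosa products were among them. INHA had 7.21, 7.13 and 6.82 on day 7 and 14.37, 14.38 and 14.04 on day 0. The gene thus lay near the middle of the day 7 arrays, at the mean percentile 56.9, and its fall of 7.21 on the log2 scale was 148-fold (SE 0.35, limma adjusted p = 6.07e-09). HSD17B1, which reduces estrone to estradiol, had 5.43, 5.34 and 6.11 on day 7 and 13.52, 13.77 and 13.26 on day 0, a 237-fold fall. GSTA1, a glutathione transferase of the alpha class, which is abundant in steroid-making cells, had 6.10, 4.98 and 5.54 on day 7 and 13.87, 14.10 and 13.59 on day 0, a 318-fold fall. For all 3 genes every day 7 array was more than 6 units below every day 0 array.

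FST, the activin-binding follistatin, had 8.32, 8.49 and 7.81 on day 7 and 13.30, 13.52 and 13.13 on day 0, and so fell but stayed above the median of the arrays. SERPINE2, a protease inhibitor made by granulosa cells, also fell, with 11.91, 10.94 and 11.08 on day 7 and 12.90, 13.91 and 13.60 on day 0, and remained a bright transcript. GJA1, the connexin of granulosa gap junctions, was in the day 0 set only by a small margin. It had 13.19, 13.13 and 13.06 on day 7 and 13.10, 13.77 and 13.51 on day 0, with overlapping days and a difference of -0.33 ± 0.17. Of the 100 brightest probe sets of day 0, 13 were called lower and 0 higher on day 7, a direction that the choice by day 0 signal favours in the same way.

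Aromatase, which makes estradiol from androgens, gave values that depended on the probe set. The pig carries near-identical aromatase paralogs, and 12 probe sets of the array were annotated to them, 4 to CYP19A1 and 8 to CYP19A3. None of the 4 probe sets of CYP19A1 was called. The brightest of them had 5.10, 5.00 and 5.13 on day 7 and 5.61, 5.18 and 4.98 on day 0, so its signal was low and the days overlapped. The brightest probe set of CYP19A3 on day 0 had 4.65, 4.94 and 4.76 on day 7 and 13.24, 13.78 and 13.02 on day 0. It was among the 100 brightest of day 0, and its fall of 8.57 ± 0.42 on the log2 scale (379-fold, limma adjusted p = 5.57e-09) was the largest among the 6765 genes when each was read at its brightest probe set. A dimmer probe set of GSTA1 fell further, by 9.39 on the log2 scale, a lower bound since it ended at or below the lower quartile of the arrays.

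A second CYP19A3 probe set had 3.90, 3.63 and 3.80 on day 7 and 12.28, 11.62 and 10.56 on day 0. In all 4 of the 8 were called lower, while 1 at the mean percentile 82.2 on day 7 and 82.0 on day 0 differed by 0.14 ± 0.20, with means of 9.02 on day 7 and 8.88 on day 0. Which of the paralogs each probe set reads is uncertain, so the fall belongs to aromatase transcripts without assignment to 1 gene. Counts for granulosa and steroid gene lists below hold CYP19A1 and not CYP19A3.

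**Figure D2:**
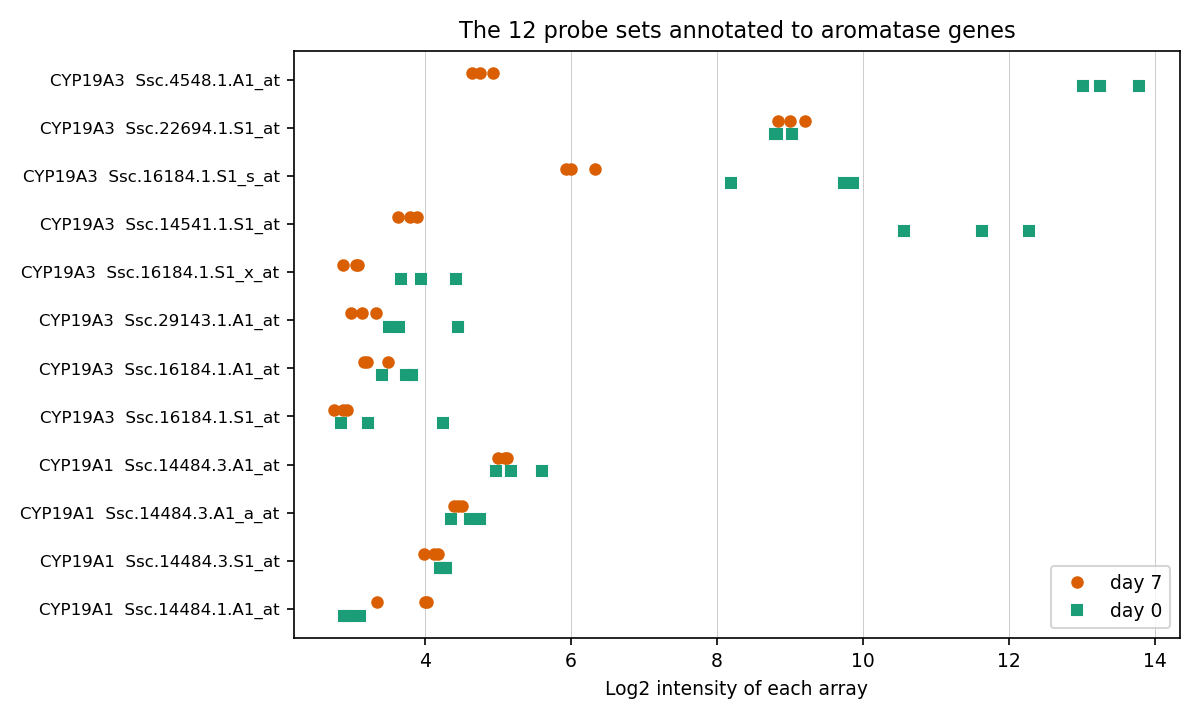
Log2 intensity on each of the 3 day 7 arrays (orange circles) and the 3 day 0 arrays (green squares) for the 12 probe sets annotated to aromatase genes, one row each. The 2 brightest day 0 rows of CYP19A3 lie at 3.63 to 4.94 on day 7 and at 10.56 to 13.78 on day 0, and the 4 rows of CYP19A1 lie under 6 on both days.

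Taking bright as above the 95th percentile of an array on all 3 arrays of a day, 1026 probe sets were bright on day 7 and 1004 on day 0, with 672 bright on both. Of the 354 bright only on day 7, 266 were called higher, and of the 332 bright only on day 0, 182 were called lower, where 9.36% of all probe sets were called higher and 7.28% lower. Being bright on 1 day only nearly fixes the direction of a call, so nothing is read from these counts. Few probe sets went all the way between bright and dim, where dim is at or below the 25th percentile on all 3 arrays. There were 7 that were bright on day 7 and dim on day 0, and 1 the other way round, the second CYP19A3 probe set described above. Among the 7 were FHL2 and CNN1. FHL2, a LIM-domain protein that works with actin-linked transcription, had 12.25, 11.91 and 12.02 on day 7 and 4.35, 3.88 and 4.04 on day 0. CNN1, the calponin of smooth muscle, had 11.41, 10.91 and 11.08 on day 7 and 4.64, 3.98 and 4.41 on day 0. The other 5 had no gene in the annotation, with differences of 6.97 to 9.32 that are lower bounds.

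A difference from a mean at or below the lower quartile of the arrays (4.68 on day 0, 4.54 on day 7) is read as a lower bound in size. By this rule the rises of COL15A1, a collagen of basement membrane zones, of LAMB1, the laminin beta-1 chain, and of DCN, the collagen-binding proteoglycan decorin, are bounds, at 8.26 ± 0.49, 7.06 ± 0.23 and 7.22 ± 0.73. Their day 7 means were 12.66 ± 0.07, 11.27 ± 0.03 and 11.85 ± 0.35. With all probe sets of DCN averaged, its difference was 3.66. Large rises that were measured on both days include PCOLCE2, an enhancer of procollagen processing, with 12.54, 11.90 and 11.96 on day 7 and 5.42, 5.53 and 5.62 on day 0. TMEM26, a membrane protein, had 12.54, 13.05 and 12.94 on day 7 and 5.55, 7.13 and 7.39 on day 0, and DAB2, an endocytic adaptor, had 10.97, 11.11 and 10.89 on day 7 and 4.09, 4.74 and 5.82 on day 0. The days were far apart for each of them. In all 209 probe sets were called at least 16-fold higher on day 7 (0.871%) and 96 at least 16-fold lower (0.4%).

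Among the falls outside the gene lists, DAPL1, a small protein related to death-associated protein, had 5.06, 5.63 and 4.82 on day 7 and 12.72, 13.21 and 12.81 on day 0. FOS, an immediate-early transcription factor, had 7.99, 8.65 and 8.05 on day 7 and 12.23, 13.57 and 13.08 on day 0, so a transcript that was bright in fresh cells fell by 4.73 ± 0.38. ACSL6, which activates long-chain fatty acids, had 4.23, 3.49 and 3.75 on day 7 and 10.05, 10.17 and 9.93 on day 0. MSRB2, a mitochondrial methionine sulfoxide reductase, and CDO1, which oxidizes cysteine, fell by 4.67 ± 0.23 and 4.60 ± 0.27. The days did not overlap for any of these 5 genes.

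**Figure D3:**
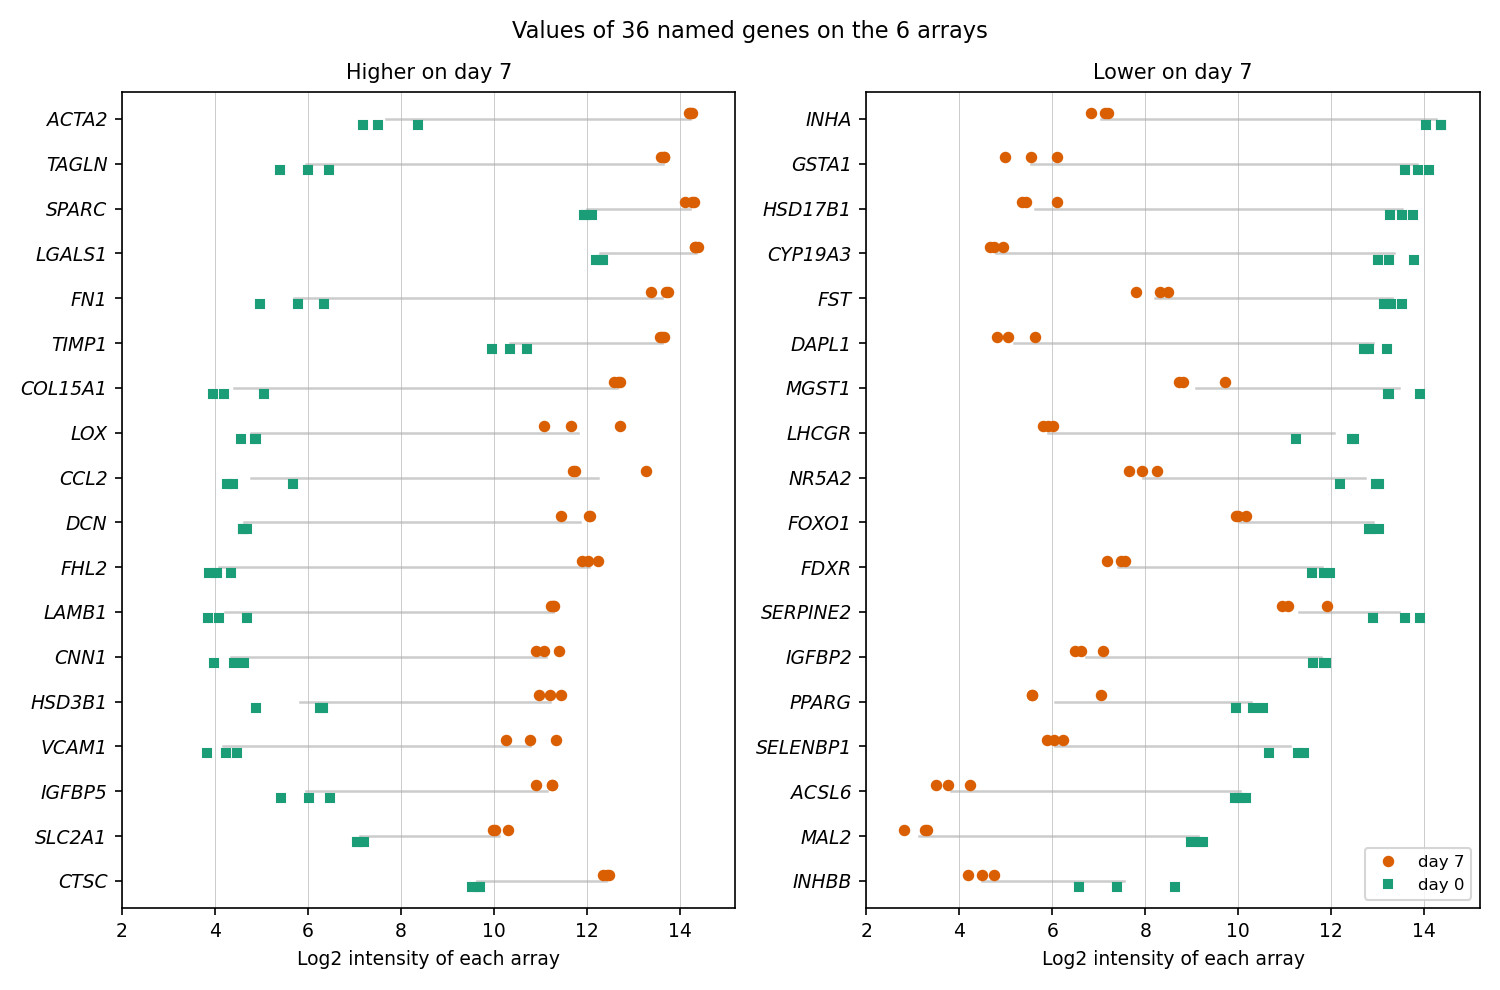
Log2 intensity of 36 named genes on each of the 3 day 7 arrays (orange circles) and the 3 day 0 arrays (green squares), with a grey line between the day means. The left panel holds 18 genes called higher on day 7 and the right panel 18 called lower, and the 2 days do not overlap in any row, while CCL2 and LOX show the widest spread among day 7 arrays on the left.

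The genes were also described by 34 lists with 641 measured members, for which the background is 856 of 6765 genes called higher and 467 lower on day 7 (19.6% called, median difference 0.03). Actin and contractile proteins had 28 of 38 members higher, 0 lower and a median difference of 2.26. On day 7, 27 of the 38 were bright on all arrays, against 10 on day 0. TPM2, a tropomyosin that lies along actin filaments, had 13.42, 13.26 and 13.39 on day 7 and 6.80, 7.74 and 8.43 on day 0, and rose 52.0-fold. ACTG2, the enteric smooth muscle actin, had 12.92, 12.33 and 11.84 on day 7 and 6.24, 6.89 and 6.79 on day 0. TPM4 rose by 2.17 ± 0.11 to a mean of 13.85 on day 7, among the 100 brightest. Summed over the list, these genes held 2.28% to 2.38% of the summed intensity of day 7 arrays and 0.810% to 0.834% of that of day 0 arrays. The summed intensity of an array was itself 23.30 to 23.36 on the log2 scale on day 7 and 23.10 to 23.23 on day 0.

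Collagens and fibril matrix genes had 23 of 33 members higher and 1 lower (median 2.51), with 21 higher and 2 lower with replicates 2 and 3 only. LOX, which cross-links collagen, had 12.72, 11.67 and 11.08 on day 7 and 4.57, 4.88 and 4.85 on day 0. CCDC80, a matrix-bound protein, averaged 12.41 ± 0.49 on day 7 and 6.05 ± 0.85 on day 0. COL1A2, a chain of type I collagen, averaged 9.64 ± 0.85 on day 7 and 7.41 ± 0.25 on day 0, a rise of 2.23 ± 0.36 that was 1.71 with replicates 2 and 3 only. COL3A1, the chain of type III collagen, had 6.90, 7.11 and 6.92 on day 7 and 7.17, 7.98 and 7.24 on day 0, with a difference of -0.49 ± 0.23 that was not called (limma adjusted p = 0.131).

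Integrins and focal adhesion genes had 16 of 20 members higher and 0 lower (median 2.19). ITGB3, the beta-3 integrin chain that pairs with the alpha-v chain, averaged 11.23 ± 0.23 on day 7 and 5.69 ± 0.27 on day 0. ITGA5, the fibronectin receptor chain, had 10.16, 9.60 and 10.01 on day 7 and 4.85, 5.50 and 4.90 on day 0. ITGB1, the beta-1 chain that pairs with ITGA5, was bright on both days, with 13.26, 13.39 and 13.28 on day 7 and 12.46, 12.62 and 12.32 on day 0, and its difference of 0.84 ± 0.13 was under the minimum. Matrix proteases and inhibitors had 12 of 19 higher and 1 lower, and 8 to 12 higher over the alternatives that kept the minimum difference. PLAT, the tissue plasminogen activator, was at 11.41 ± 0.30 on day 7 and 8.21 ± 0.61 on day 0. MMP2, a gelatinase, was at 11.52 ± 0.13 on day 7 and 8.58 ± 0.50 on day 0. The member that fell was SERPINE2, described above. In the basement membrane list, 3 of 6 rose and 2 fell. LAMB2, the laminin beta-2 chain, had 7.70, 8.18 and 8.35 on day 7 and 10.44, 10.57 and 10.77 on day 0, so that LAMB1 and LAMB2 moved in opposite directions. The fall of COL4A2 in that list was not called without day 7 replicate 1 or 3 or day 0 replicate 2 or 3.

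S100 proteins and annexins had 7 of 14 members higher and 1 lower (median 0.98). S100A10, the partner of ANXA2, had 12.68, 11.93 and 12.04 on day 7 and 7.39, 7.65 and 7.68 on day 0. S100A4, a calcium-binding protein of motile cells, had 11.57, 9.13 and 9.77 on day 7 and 5.32, 5.20 and 5.88 on day 0. Replicate 1 of day 7 was the highest for S100A4, and the rise of 4.69 ± 0.49 was 3.91 with replicates 2 and 3 only.

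Granulosa identity genes had 11 of 23 members lower on day 7 and 0 higher, with a median difference of -0.95. On day 7, 2 of the 23 were bright on all arrays, against 9 on day 0. Their sum held 0.157% to 0.177% of the summed intensity on day 7 and 0.873% to 1.07% on day 0. LHCGR, the receptor for luteinizing hormone, had 5.80, 5.90 and 6.02 on day 7 and 12.49, 12.46 and 11.24 on day 0. NR5A2, a nuclear receptor of steroid-making ovarian cells, had 8.26, 7.93 and 7.66 on day 7 and 13.04, 12.97 and 12.20 on day 0, and FOXO1, a forkhead factor that follicle-stimulating hormone restrains, had 9.95, 10.16 and 9.99 on day 7 and 12.82, 13.04 and 12.87 on day 0. Both stood well apart between the days, yet FOXO1 stayed above the 90th percentile of the day 7 arrays on average. INHBB, an inhibin and activin beta subunit, and AMH, the anti-Müllerian hormone, ended at means of 4.48 and 4.46, so their falls of 3.05 and 2.47 on the log2 scale are bounds.

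The other 12 members were not called. FOXL2, the transcription factor of granulosa fate, had 5.94, 5.85 and 6.01 on day 7 and 6.05, 5.78 and 5.85 on day 0, with overlapping days and a mean below the median of the arrays on both. FSHR, the receptor for follicle-stimulating hormone, had 5.36, 6.14 and 6.82 on day 7 and 6.81, 6.66 and 7.55 on day 0, with overlapping days and a 95% interval of -1.80 to -0.000876 (limma adjusted p = 0.124). NR5A1, a regulator of steroid enzyme genes, had 7.86, 7.99 and 8.22 on day 7 and 8.97, 8.98 and 8.97 on day 0. Its difference of -0.95 ± 0.18 was just under the minimum.

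Of 18 steroid genes, 7 were lower and 4 higher on day 7. Among those that supply electrons to the steroid enzymes, FDXR, ferredoxin reductase, had 7.18, 7.57 and 7.48 on day 7 and 11.58, 11.98 and 11.85 on day 0, while FDX1, ferredoxin, fell by 2.21 ± 0.16 and POR, the reductase of microsomal cytochromes P450, by 3.03 ± 0.37. CYB5A, cytochrome b5, fell by 1.41 ± 0.19. HSD3B1, which makes progesterone from pregnenolone, had 11.45, 11.20 and 10.98 on day 7 and 6.32, 4.89 and 6.27 on day 0, a 41.7-fold rise (limma adjusted p = 4.10e-07) that made it bright on all day 7 arrays. CYP11A1, the side-chain cleavage enzyme, had 11.58, 10.38 and 10.94 on day 7 and 7.58, 7.48 and 8.75 on day 0, and rose by 3.03 ± 0.71.

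STAR, which moves cholesterol into mitochondria, had 4.34, 4.27 and 4.70 on day 7 and 5.98, 5.48 and 4.72 on day 0 in the probe set with the highest mean (difference -0.96 ± 0.28, not called, a lower bound in size). The difference passed both thresholds without day 7 replicate 3 (-1.09), without day 0 replicate 3 (-1.29) and with both probe sets averaged (-1.54). Its second probe set had 3.71, 3.74 and 3.93 on day 7 and 7.55, 6.27 and 3.91 on day 0 and was called lower, by 2.12 ± 0.59 on the log2 scale (limma adjusted p = 0.0142). The days overlapped there, since replicate 3 of day 0 lay at the level of day 7. This difference was -1.30 without day 0 replicate 1 and -3.12 without day 0 replicate 3, and it was not called without day 0 replicate 2, with replicates 2 and 3 only, or in a fit to the 6 arrays alone. SCARB1, the receptor for high-density lipoprotein, fell by 1.84 ± 0.16 on the log2 scale, and TSPO, a mitochondrial membrane protein that binds cholesterol, rose by 1.31 ± 0.25 (difference ± SE for both). The lysosomal cholesterol exporters went opposite ways. NPC1 had 8.82, 8.62 and 8.59 on day 7 and 10.02, 10.20 and 10.39 on day 0, and NPC2 had 12.13, 11.67 and 11.92 on day 7 and 8.74, 9.47 and 9.44 on day 0. NPC1 fell by 1.52 ± 0.21 and NPC2 rose by 2.69 ± 0.34, although the mean of all probe sets annotated to NPC2 was not called. Cholesterol synthesis and uptake genes had 2 of 18 members higher and 1 lower, a share near or under that of all genes. They had 1 higher and 0 lower without day 7 replicate 2 or 3, 1 and 1 without day 0 replicate 3 or with probe sets averaged, 2 and 0 without day 0 replicate 1 or 2 or after cyclic loess, and 1 and 2 after a second quantile normalization.

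Detoxification and redox genes changed in both directions, with 8 of 25 lower and 5 higher. Beside GSTA1, the falls included MGST1, a microsomal glutathione transferase, with 9.72, 8.73 and 8.82 on day 7 and 13.23, 13.91 and 13.24 on day 0. SELENBP1, a selenium-binding protein, had 5.89, 6.05 and 6.24 on day 7 and 10.66, 11.29 and 11.41 on day 0. GCLC, which starts glutathione synthesis, and NQO1, a quinone reductase, fell by 2.74 ± 0.22 and 2.58 ± 0.34. In the other direction GPX1, the cytosolic glutathione peroxidase, averaged 11.73 ± 0.04 on day 7 and 8.88 ± 0.44 on day 0, and GLRX, a glutaredoxin that was not in the list, had 11.11, 9.96 and 9.99 on day 7 and 4.13, 4.13 and 4.55 on day 0. Several bright antioxidants differed little, among them TXN, thioredoxin, at -0.13 ± 0.15 and PRDX2, a peroxiredoxin, at -0.15 ± 0.14. When every probe set of a gene was averaged, 7 members were lower and 3 higher.

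Energy metabolism differed between its branches. Of 18 glycolysis genes 10 were higher and 0 lower on day 7 (median 1.11), and 7 to 10 were higher over the alternatives that kept the minimum difference. SLC2A1, the glucose transporter GLUT1, had 10.31, 9.99 and 10.02 on day 7 and 7.20, 7.08 and 7.06 on day 0, and rose 7.94-fold (limma adjusted p = 6.01e-07). HK1, which traps glucose as its phosphate, averaged 12.42 ± 0.12 on day 7 and 10.23 ± 0.37 on day 0, and LDHA, which makes lactate, 13.43 ± 0.14 on day 7 and 11.51 ± 0.41 on day 0. The enolases differed from each other. ENO1, the common form, had 13.71, 13.69 and 13.71 on day 7 and 13.59, 13.83 and 13.53 on day 0. ENO3, the muscle form, had 12.15, 10.47 and 9.09 on day 7 and 7.89, 7.70 and 7.87 on day 0, wide apart among day 7 arrays, and its rise of 2.75 ± 0.57 was 2.00 with replicates 2 and 3 only.

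The list of respiratory chain and ATP synthase genes had 33 measured members, all of the respiratory chain, so ATP synthase was not read. Of the 33, 0 were called higher and 0 lower with limma (median 0.05). At an adjusted p under 0.05 with no minimum difference there were 4 higher and 4 lower. At an unadjusted p under 0.05 there were 6 higher and 4 lower. For 31 of them the 95% interval lay inside -1 to 1. COX5B, a subunit of cytochrome c oxidase, had 12.85, 12.63 and 12.61 on day 7 and 12.92, 12.78 and 12.54 on day 0. In 4 alternative analyses that kept the minimum difference, 1 member was called higher. Glycolysis genes summed to 0.758% to 0.803% of the intensity on day 7 and 0.469% to 0.560% on day 0, and respiratory chain genes to 0.745% to 0.795% on day 7 and 0.800% to 0.887% on day 0.

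Ribosomal proteins lay at similar levels on both days. Of 59 members 0 were called in either direction with limma. At an adjusted p under 0.05 with no minimum difference 5 were higher and 0 lower (9 and 0 at an unadjusted p under 0.05). The differences ran from -0.13 to 0.64, and 58 had a 95% interval inside -1 to 1. Their sum was 6.03% to 6.28% of the intensity on day 7 and 6.19% to 6.43% on day 0. RPSA, a ribosomal protein also known as a laminin receptor, had the largest difference of the list, with 13.92, 14.01 and 14.01 on day 7 and 13.14, 13.51 and 13.38 on day 0. Translation factors had 2 of 27 higher and 0 lower, or 1 higher and 1 lower after cyclic loess. Of the 2, EIF4G1, a scaffold of the cap-binding complex, was not called without day 7 replicate 1 or day 0 replicate 2 or 3. It was also not called with probe sets averaged, and the other, EIF4A1, was not called after cyclic loess.

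The secretory route had 8 of 40 endoplasmic reticulum folding and export genes higher and 0 lower (median 0.53), with 21 inside -1 to 1. The share called was close to the 19.6% of all genes called, so nothing is read from the count. KDELR3, which returns chaperones to the endoplasmic reticulum, had 12.03, 11.82 and 11.90 on day 7 and 9.09, 9.16 and 8.56 on day 0. SEC24D, a coat protein of export vesicles that carry procollagen, had 10.42, 9.82 and 9.99 on day 7 and 6.88, 7.00 and 7.25 on day 0. Both were apart on every array. Chaperones of the compartment that were bright on both days differed less. HSPA5, the chaperone BiP, had 12.89, 13.08 and 12.94 on day 7 and 12.97, 13.44 and 13.06 on day 0, and PDIA6, a disulfide isomerase, differed by -0.13 ± 0.13.

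Lysosome and cathepsin genes had 9 of 31 higher and 1 lower (median 0.56), but 5 higher and 1 lower after a second quantile normalization or cyclic loess. CTSC, a protease that activates others, had 12.47, 12.43 and 12.36 on day 7 and 9.70, 9.54 and 9.69 on day 0. LGMN, an asparagine endopeptidase, and CTSH, a cathepsin, averaged 11.87 ± 0.08 and 10.75 ± 0.27 on day 7 and 9.57 ± 0.38 and 8.65 ± 0.14 on day 0. CTSB, another cathepsin, rose by 1.09 ± 0.12 and was not called under those 2 normalizations. Cytosolic chaperones had 4 of 23 higher and 1 lower, of which HSPB8, a small heat shock protein, rose by 3.24 ± 0.27. The list had 2 higher and 1 lower with probe sets averaged, 3 and 2 without day 7 replicate 1 or day 0 replicate 3 and after a second quantile normalization or cyclic loess, and 4 and 2 with arrays shifted to the same median or with replicates 2 and 3 only.

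Members of the secreted signal lists were called in both directions. In the insulin-like growth factor system 3 of 12 genes were higher and 2 lower. IGFBP5, a binding protein that attaches to matrix, had 10.92, 11.26 and 11.25 on day 7 and 6.47, 6.02 and 5.41 on day 0, whereas IGFBP2, another binding protein, had 7.09, 6.62 and 6.49 on day 7 and 11.60, 11.84 and 11.89 on day 0. The levels of both were thus far apart between the days and in opposite directions, with differences of 5.18 ± 0.68 and -5.05 ± 0.75. IGF1, the ligand, fell by 1.27 ± 0.25, and STC1, the stanniocalcin that was kept in this list, rose by 4.00 ± 0.45.

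In the TGF-beta and BMP list 7 of 21 were higher and 2 lower (median 0.51). TGFB1, a ligand, had 8.99, 8.91 and 9.39 on day 7 and 3.98, 4.44 and 5.14 on day 0. PMEPA1, a feedback inhibitor of the pathway, had 11.04, 11.89 and 12.25 on day 7 and 4.90, 5.74 and 6.51 on day 0. ID2, an inhibitor of basic helix-loop-helix factors, had 5.35, 5.83 and 5.43 on day 7 and 7.48, 9.11 and 9.36 on day 0, while its relative ID3 differed by 0.85 ± 0.21 and was bright on all day 7 arrays.

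Chemokines, cytokines and their receptors had 9 of 27 higher and 2 lower (median 0.38). CCL2, which attracts monocytes, had 13.28, 11.71 and 11.76 on day 7 and 5.69, 4.27 and 4.38 on day 0. Replicate 1 was the highest on each day for this gene, and its rise of 7.47 ± 0.58 was 7.41 with replicates 2 and 3 only. VCAM1, a cell surface ligand of leukocyte integrins, had 11.33, 10.27 and 10.77 on day 7 and 4.25, 3.83 and 4.47 on day 0. LIF, a cytokine of the interleukin-6 family, averaged 8.79 ± 0.60 on day 7 and 3.64 ± 0.43 on day 0, so its rise of 5.15 ± 0.35 is a bound. PTGES, a prostaglandin E synthase kept in this list, had 9.51, 9.23 and 9.05 on day 7 and 12.84, 12.84 and 12.03 on day 0, and fell by 3.31 ± 0.26.

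Cell division genes had 8 of 26 members lower and 0 higher (median -0.68), and 20 of the 26 had values that did not overlap between the days. Over all probe sets, dim ones included, 46.5% did not overlap, while members were each read at their brightest probe set. TOP2A, the topoisomerase of dividing cells, had 9.73, 9.35 and 9.05 on day 7 and 11.89, 11.35 and 11.31 on day 0. AURKB, a mitotic kinase, had 8.49, 8.24 and 8.24 on day 7 and 9.90, 9.89 and 9.88 on day 0, and CDC20, an activator of the anaphase-promoting complex, had 8.59, 8.70 and 8.28 on day 7 and 10.48, 10.01 and 9.87 on day 0. These 3 genes remained above the median of the day 7 arrays. CCNB1, the mitotic cyclin B1, differed by -0.78 ± 0.35 and was not called. Of 13 cyclins and cell cycle inhibitors 5 were lower and 1 higher. CDKN1A, the inhibitor p21, had 11.10, 10.27 and 10.54 on day 7 and 7.82, 8.78 and 9.07 on day 0. GADD45G, a growth arrest gene, had 7.00, 7.40 and 7.36 on day 7 and 9.03, 10.58 and 10.48 on day 0. Without day 0 replicate 1 the list had 3 lower and 2 higher, without day 0 replicate 3 it had 6 lower and 2 higher, and with replicates 2 and 3 only it had 4 lower and 2 higher. The fall of CCND2, a D-type cyclin, was not called without day 7 replicate 1 or day 0 replicate 1 or 2, with replicates 2 and 3 only, or in a fit to the 6 arrays alone.

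Mesenchymal and stem cell markers had 7 of 13 higher and 2 lower, with 0 lower when day 7 replicate 3 was left out and 1 lower without day 7 replicate 1, without any 1 array of day 0, or in a fit to the 6 arrays alone. CDH11, the cadherin of mesenchymal cells, had 8.77, 9.77 and 9.11 on day 7 and 3.50, 2.87 and 3.10 on day 0. THY1, the surface antigen CD90, had 9.79, 9.65 and 10.47 on day 7 and 5.88, 5.66 and 6.13 on day 0. MYC, a growth-related transcription factor, rose by 3.11 ± 0.18 to a mean of 9.45 on day 7. None of the 13 genes was bright on all arrays of either day. Of 12 tubulins and intermediate filaments 3 were higher and 0 lower. VIM, the intermediate filament vimentin of mesenchymal cells, was among the brightest genes before culture, with 14.06, 13.90 and 13.89 on day 7 and 13.38, 13.64 and 13.57 on day 0.

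Regulators and marker genes of bone, cartilage and fat had 5 of 19 higher and 3 lower (median 0.00). SPP1, osteopontin of bone matrix, had 11.08, 9.08 and 10.09 on day 7 and 3.54, 3.78 and 3.89 on day 0. DLX5, a homeobox factor of bone-forming cells, had 8.18, 10.08 and 9.68 on day 7 and 5.05, 4.38 and 4.42 on day 0, and SOX9, the cartilage factor, had 7.20, 7.09 and 7.59 on day 7 and 5.00, 4.78 and 4.93 on day 0. The fat genes went both ways. PPARG, the nuclear receptor that drives fat cell formation, had 7.06, 5.55 and 5.57 on day 7 and 10.31, 9.96 and 10.54 on day 0, and its target FABP4, a fatty acid binding protein, had 7.28, 6.21 and 5.32 on day 7 and 3.76, 3.63 and 3.35 on day 0. Without day 0 replicate 3 the list had 4 higher and 1 lower.

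Markers of other cell types were measured to see which cells the cultures could hold. Of 11 smooth muscle and pericyte markers 8 were higher and 0 lower, and 5 of the 11 were bright on day 7 against 0 on day 0. ACTA2, ACTG2, TAGLN and CNN1 are among these markers and stand in the list of contractile proteins too. All 11 smooth muscle and pericyte markers summed to 0.431% to 0.440% of the intensity on day 7 and 0.00994% to 0.0147% on day 0. PDGFRB, a receptor of pericytes and fibroblasts, averaged 10.26 ± 0.26 on day 7 and 5.64 ± 0.95 on day 0. RGS5, a pericyte gene, had 9.26, 10.81 and 11.23 on day 7 and 4.68, 7.57 and 8.06 on day 0, with replicate 1 the lowest on each day. DES, the muscle filament desmin, had 9.69, 7.12 and 8.41 on day 7 and 5.97, 6.24 and 6.36 on day 0, and its rise of 2.22 was 1.47 with replicates 2 and 3 only. Of 10 theca and stromal markers 4 were higher and 1 lower. LUM, a fibril proteoglycan of stroma, had 9.08, 9.31 and 8.75 on day 7 and 3.30, 2.86 and 3.14 on day 0, while INSL3, which theca cells make, had 5.93, 5.51 and 5.58 on day 7 and 7.91, 7.76 and 8.42 on day 0. The share of cells of these types was not measured, and their part in the rises of contractile and matrix genes was not tested.

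Markers of blood and vessel cells held little of the signal on both days. Their sums were 0.00385% to 0.00420% of the intensity on day 7 and 0.00457% to 0.00626% on day 0 for 13 macrophage markers, of which 1 was higher and 1 lower, and 0.00511% to 0.00517% on day 7 and 0.00470% to 0.00701% on day 0 for 13 lymphocyte and granulocyte markers, of which 0 were called with limma (0 in either direction at an unadjusted p under 0.05). Of 4 red blood cell markers 0 were called (0 higher and 1 lower at an unadjusted p under 0.05 in limma). Among macrophage markers CD14, a receptor for bacterial lipopolysaccharide, averaged 6.54 ± 0.05 on day 7 and 4.87 ± 0.34 on day 0 (SD, n = 3 each), a rise of 1.67 ± 0.22 that was not called when its probe sets were averaged. SPI1, a transcription factor of myeloid cells, had 5.45, 4.66 and 4.71 on day 7 and 7.33, 6.61 and 6.65 on day 0. The scavenger receptor MARCO averaged 6.39 on day 7 and 6.70 on day 0, and the macrophage genes MRC1 and AIF1 had means of at most 4.36 on both days. Of 12 endothelial markers 2 were higher and 1 lower. PECAM1, an adhesion molecule of vessels and blood cells, had 6.89, 7.40 and 7.14 on day 7 and 5.96, 5.82 and 5.19 on day 0, and ERG, an endothelial transcription factor, had 6.97, 7.78 and 8.22 on day 7 and 3.53, 4.25 and 4.90 on day 0, a rise that is a lower bound. TIE1, a receptor kinase of endothelium, had 5.37, 6.38 and 6.26 on day 7 and 8.60, 8.39 and 8.23 on day 0, while KDR, a receptor of vessel growth factor, was at 3.30 to 3.74 on day 7 and 3.32 to 4.54 on day 0. The called members of the macrophage and endothelial lists thus went both ways, and the days did not overlap for these 5 called genes. Of 10 oocyte and cumulus markers 1 was higher and 1 lower, or 2 lower with replicates 2 and 3 only. GDF9, a growth factor of the oocyte, had 5.74, 5.78 and 5.68 on day 7 and 7.24, 7.26 and 7.53 on day 0. Of the 7 surface epithelium markers 1 was higher and 1 lower. KRT19, a keratin, had 6.81, 9.34 and 7.37 on day 7 and 4.47, 4.19 and 4.46 on day 0, a rise that is a lower bound. CDH1, the epithelial cadherin, had 4.26, 4.28 and 4.44 on day 7 and 5.80, 5.10 and 5.34 on day 0, a fall that is a lower bound and was not called without day 0 replicate 1, with replicates 2 and 3 only, after cyclic loess or with probe sets averaged. EPCAM, a surface marker of epithelia, was at 3.69 to 4.79 on day 7 and 4.23 to 4.53 on day 0.

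Epithelial adhesion genes had 1 of 15 higher and 2 lower, with 2 higher and 2 lower without day 0 replicate 2 or 3, and 1 and 1 without day 0 replicate 1, with replicates 2 and 3 only, after cyclic loess or with probe sets averaged. MAL2, a protein of apical membrane traffic, had 3.31, 3.26 and 2.81 on day 7 and 9.19, 9.25 and 8.98 on day 0, so a transcript at the mean percentile 84.9 on day 0 was at 5.62 on day 7. DSP, the desmosomal protein desmoplakin, had 7.39, 7.79 and 7.85 on day 7 and 4.44, 3.98 and 5.09 on day 0. CTNNB1, the adherens junction protein beta-catenin, differed by -0.29 ± 0.12 at means above 11.8 on both days.

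**Figure D4:**
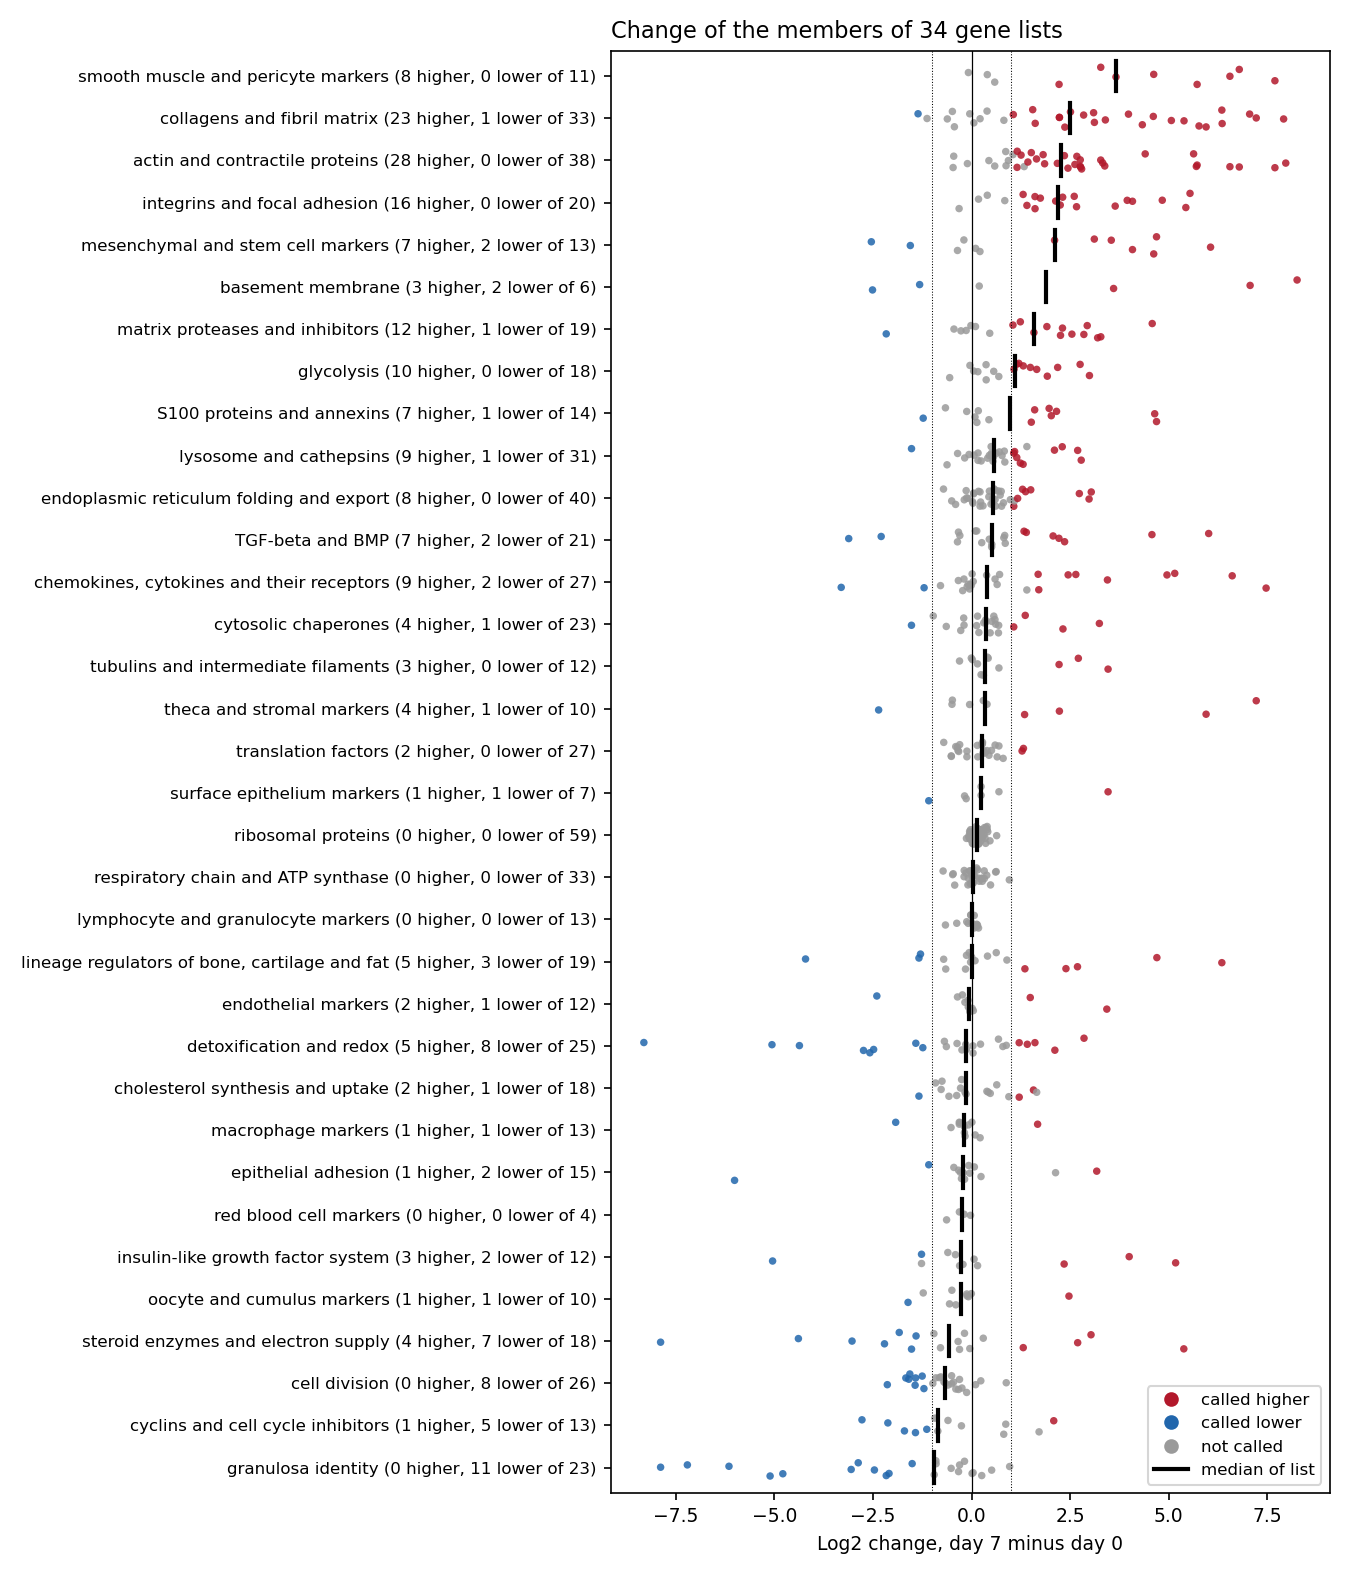
Log2 difference, day 7 minus day 0, of each measured member of 34 gene lists, one point a gene, in red where called higher, blue where called lower and grey where not called, with the median of each list as a black bar and dotted lines at -1 and 1. Lists run from the highest median (smooth muscle and pericyte markers, 3.66) to the lowest (granulosa identity, -0.95), and the 59 ribosomal proteins all lie inside the dotted lines.

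**Figure D5:**
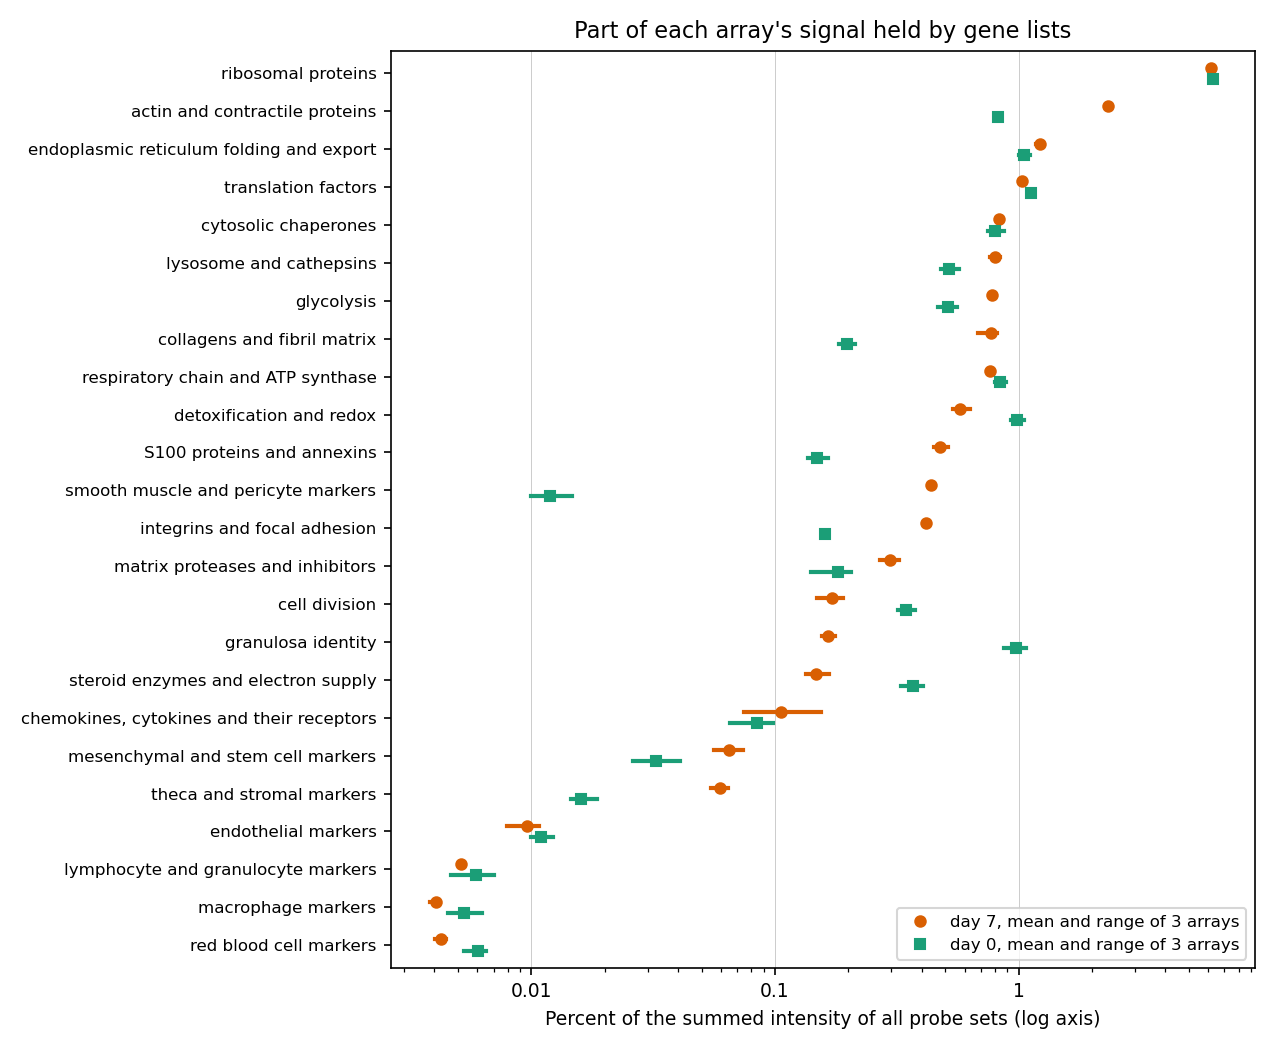
Percent of the summed linear intensity of all probe sets held by 24 of the lists (log axis), as the mean (symbol) and range (line) of 3 day 7 arrays (orange) and 3 day 0 arrays (green). Actin and contractile proteins lie at 2.28% to 2.38% on day 7 and 0.810% to 0.834% on day 0, and granulosa identity genes at 0.157% to 0.177% on day 7 and 0.873% to 1.07% on day 0.

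Many called probe sets cannot be named, since 1799 carried 1 symbol and 2194 did not. For 2261 genes with several probe sets, 116 had all of them called higher and 53 all called lower, 427 had only some called, all in 1 direction, and 5 had calls in both directions. These 5 were B2M, MCRIP2, NKIRAS1, RAN and SHISA5, named because they disagreed. When all probe sets of a gene were averaged, 27 of the 164 called genes examined by name moved by over 1.5 times, 26 of them to smaller values. Among matrix genes the difference of FN1 was then 3.29, that of LOX 3.62 and that of SPARC 1.27. Among adhesion and receptor genes that of ITGA5 was 3.08, that of CDH11 2.67, that of THY1 2.18, that of PDGFRB 2.28, that of DSP 1.46 and that of MAL2 -3.13. For other genes described above it was 3.18 for ACTG2, 1.07 for DES, 3.99 for PMEPA1, 2.63 for STC1, -1.84 for FOXO1, -1.55 for INHBB and -2.75 for CYP19A3, while that of CTSC was larger, at 4.73. For B2M, the light chain of class I histocompatibility molecules, 3 of 9 probe sets were called higher, by 1.36 to 2.07, 1 was called lower, by 2.01 on the log2 scale, and 5 were not called, among them the pair that was brightest on day 0 (0.11 and -0.03). No direction is given for these 5 genes. The promoters of the genes that moved together were not analysed here.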

How the data were processed

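Total RNA of 15 samples was hybridized to Affymetrix porcine arrays, 3 arrays for each of 5 days. The deposited table holds log2 values made by the authors with RMA, per the submitters' processing notes, which name no version. RMA corrects background, sets the probe intensities of all arrays to 1 distribution and then summarizes probes. Total RNA per cell therefore cannot be seen, and low values are compressed. The summarized values still differed in distribution, with 95th percentiles of 10.72 to 10.84 on day 7 arrays and 10.51 to 10.60 on day 0 arrays. Depth does not apply to arrays, whose number limits the precision.

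The day was fitted as a factor with limma 3.58.1 (R 4.3.3) to the 15 arrays, and day 7 was compared with day 0 after 124 control probe sets were left out. A call needed a Benjamini-Hochberg adjusted p under 0.05 over 23999 probe sets and a log2 difference of at least 1. The fit was tested on simulated data. Gene symbols came from the platform annotation: 10069 probe sets had 1 symbol, 198 several and 13732 none, and only the first kind was named. Of the named probe sets 9961 had an Entrez ID in the RefSeq gene table. A gene was read at the probe set with the highest mean over the 6 arrays.

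Named genes were each day's brightest, the largest rises and falls without overlap, and those bright on 1 day and dim on the other. The brightest with a narrow interval were named too. From each list came up to 6 members by size of change and, besides these, a few by level. Some well known genes were fixed by name. The 5 genes whose probe sets disagreed, SCARB1, TSPO, the second probe set of STAR and the examples among the brightest probe sets were chosen after their values were seen. The members and lists were chosen with earlier results of these data known. Of 929 list genes 641 were measured.

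Same-numbered arrays of days 7 and 0 deviated together from their day means (correlations 0.384, 0.349 and 0.214). Each was over 0.1, so the replicate number was taken to pair them in an alternative fit, the replicate block. Of the other pairs, 2 with 3 and 3 with 2 had 0.159 and 0.197 and the rest were below 0. The main fit held the day alone, so its SEs, intervals and p values do not use the pairing. The alternatives were other normalizations, filters, minimum differences, the replicate block, averaged probe sets, other limits for bright and dim, and each array left out. Promoter sequences were not analysed here.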

Additional observations from a re-analysis of the deposited data

How the results depend on the processing

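No called probe set was called in the opposite direction under the 16 alternatives fitted over probe sets. With the minimum difference at 1, 88.8% to 100% of the 3993 calls were kept where all were tested, and without the dimmest 40% the 3283 that were tested were all kept. Leaving out each array in turn gave 3787 to 4136 calls, 2099 to 2256 higher on day 7 and 1554 to 2037 lower, and the other alternatives that kept the minimum gave 3318 to 4281. With the replicate block there were 4197 calls, which held all 3993.

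The share of calls that were higher on day 7, 56.2%, was 51.3% after a second quantile normalization, 54.0% with arrays shifted to the same median, 60.3% without the dimmest 40% of probe sets, 52.8% with replicates 2 and 3 only, and 50.7% to 59.2% with 1 array left out. With no minimum difference there were 7514 calls (3932 higher, 3582 lower, 52.3% higher) and 92 list genes lower. With a minimum of 2 there were 1405 (884 higher, 521 lower, 62.9% higher), and 145 list genes called (32 lower), against 229 (169 higher, 60 lower) at a minimum of 1. Without the dimmest 40%, 7073 probe sets lay inside -1 to 1, against 14616 of all probe sets. Fewer were tested there, and the share inside was also smaller than the 60.9% over all probe sets.

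Of the 50 brightest probe sets 31 were shared between the days, and of the 200 brightest 142. Probe sets bright on day 0 and dim on day 7 numbered 3 with bright above the 90th percentile, 5 with dim at or below the 33rd percentile and 1 to 3 with 1 array left out (3 without day 7 replicate 2). Those bright on day 7 and dim on day 0 numbered 12 with the 33rd percentile. The cause of these shifts was not tested. Of 164 called named genes, 150 had a value under all 15 alternatives that kept the minimum difference, and 133 of them stayed called; the other 14 were not tested without the dimmest 40%.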
